A study of Mus musculus with 2 samples.

Results

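Shank1, Shank2, Shank3, Dlgap1, Dlgap2, Dlgap3, Dlgap4, Dlg2 and Dlg4 encode scaffold proteins of the postsynaptic density, and their loci were examined for accessible chromatin in adult mouse cortex. The members were chosen by name as 9 of the 21755 protein-coding genes on chromosomes 1 to 19 and X in GENCODE M21, and a locus was taken as the gene body with 10 kb on either side. Each distinct annotated transcription start site (TSS), with 500 bp on either side, was counted as a separate promoter window, which gave 97 windows in the 9 genes of 93196 in all. DNase-seq, in which nuclei are cut lightly with DNase I and the cut ends are sequenced, had been run on tissue of the left cerebral cortex. It came from 2 females of the strain B6CASTF1/J, an F1 hybrid of C57BL/6J and CAST/EiJ, at an age of 2 months. The labels name no treatment, allele or second group, so the libraries (replicate 1 and replicate 2) stand for 1 group and no groups were compared. The labels number the females and the biological replicates separately but give both the same donor entry. The height of a peak is the cut density that the authors scaled to read depth, and each value covers both parental genomes together. A peak or promoter is called shared when it was found in both libraries.

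Shank proteins are large scaffolds that hold together, indirectly, the glutamate receptors and the actin cytoskeleton of the dendritic spine, and Shank3 is a gene known for its role in autism. The proteins of the Dlgap family, also known as SAPAPs or GKAPs, join Shank proteins to membrane-associated guanylate kinases. Dlg4 encodes PSD-95 and Dlg2 encodes PSD-93, guanylate kinases of this kind that anchor NMDA receptors and, through auxiliary subunits, AMPA receptors. Several of these genes are long and have internal promoters from which shorter proteins are made, so that accessibility within the gene body can belong to a promoter or to a regulatory element away from any TSS. In bulk tissue, fewer cells with an open site and less accessibility per cell cannot be told apart.

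The sequences of 8 accessible sites on which the results below turn are given first. All are on the forward strand of mm10, on which all 9 genes also lie, and none touches an annotated exon. Capitals mark bases inside a footprint, a short stretch protected from DNase I, of both libraries. The initial 4 are intronic sites of Shank2 and Dlgap1 that hold the letters of the CTCF motif inside such a footprint; CTCF is a zinc-finger protein known for anchoring chromatin loops.
Shank2 intron, chr7:144074801-144074980: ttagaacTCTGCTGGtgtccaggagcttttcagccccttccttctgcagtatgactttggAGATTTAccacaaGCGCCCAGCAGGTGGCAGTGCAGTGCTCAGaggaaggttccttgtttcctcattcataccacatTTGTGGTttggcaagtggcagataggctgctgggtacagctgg
Shank2 intron, chr7:144217301-144217480: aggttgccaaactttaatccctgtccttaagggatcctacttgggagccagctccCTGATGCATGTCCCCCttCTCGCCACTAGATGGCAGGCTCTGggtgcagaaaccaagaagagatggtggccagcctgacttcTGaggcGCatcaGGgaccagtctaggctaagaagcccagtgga
Dlgap1 intron, chr17:70429821-70430000: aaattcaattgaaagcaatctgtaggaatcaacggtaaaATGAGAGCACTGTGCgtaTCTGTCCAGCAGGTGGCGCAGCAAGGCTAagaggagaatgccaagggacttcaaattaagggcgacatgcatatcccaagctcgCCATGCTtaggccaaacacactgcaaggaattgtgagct
Dlgap1 intron, chr17:70683901-70684100: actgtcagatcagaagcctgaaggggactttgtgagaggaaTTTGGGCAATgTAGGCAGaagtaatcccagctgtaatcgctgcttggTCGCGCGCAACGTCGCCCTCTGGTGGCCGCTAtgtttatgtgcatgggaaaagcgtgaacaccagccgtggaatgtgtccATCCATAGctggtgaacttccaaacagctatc
Another 3 are strong intronic sites without those letters, shown because they are among the 10 strongest sites away from a TSS: a Dlgap1 site with the E-box letters CAGATGG, a Dlg4 site with repeats of GGGCGGG, and a Dlgap4 site with none of the motifs searched.
Dlgap1 intron, chr17:70488961-70489220: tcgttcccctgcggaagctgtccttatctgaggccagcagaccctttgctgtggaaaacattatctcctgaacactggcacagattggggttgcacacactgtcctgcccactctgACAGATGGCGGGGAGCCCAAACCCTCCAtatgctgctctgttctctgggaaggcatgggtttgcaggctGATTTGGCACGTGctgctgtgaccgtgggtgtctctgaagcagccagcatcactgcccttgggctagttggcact
Dlg4 intron, chr11:70021541-70021820: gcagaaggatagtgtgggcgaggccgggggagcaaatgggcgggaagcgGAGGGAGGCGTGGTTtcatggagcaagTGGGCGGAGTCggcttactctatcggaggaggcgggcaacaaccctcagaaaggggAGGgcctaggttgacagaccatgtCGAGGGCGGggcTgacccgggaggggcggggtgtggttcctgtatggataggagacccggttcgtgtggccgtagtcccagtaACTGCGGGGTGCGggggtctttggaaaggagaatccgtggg
Dlgap4 intron, chr2:156666381-156666640: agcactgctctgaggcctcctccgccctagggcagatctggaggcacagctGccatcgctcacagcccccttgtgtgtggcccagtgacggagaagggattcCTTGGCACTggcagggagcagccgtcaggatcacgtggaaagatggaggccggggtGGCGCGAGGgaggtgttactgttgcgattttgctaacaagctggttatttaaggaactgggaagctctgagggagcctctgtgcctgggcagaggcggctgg
The last is the 250 bases upstream of an internal TSS of Shank3 (Shank3-207), with a footprint over the RFX letters.
Shank3-207 upstream, chr15:89532640-89532889: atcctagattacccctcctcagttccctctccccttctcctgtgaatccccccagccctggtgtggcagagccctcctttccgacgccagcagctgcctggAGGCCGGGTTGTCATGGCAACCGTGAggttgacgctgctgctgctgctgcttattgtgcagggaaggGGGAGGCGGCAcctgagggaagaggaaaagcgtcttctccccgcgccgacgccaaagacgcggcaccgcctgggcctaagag

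The tissue label was checked against marker genes. A shared promoter peak was present at 6 of 6 markers of excitatory neurons, 4 of 4 of inhibitory neurons, 4 of 5 of astrocytes and 2 of 5 of oligodendrocytes. None of 4 microglial markers, of 3 endothelial markers or of 5 markers of other tissues had one. The libraries held 128323 and 119651 peaks, and 80487 merged peaks were shared. If 1 step of the heights is 1 cut, the steps correspond to 206 M and 208 M cuts in replicates 1 and 2. Replicate 1 also had more footprints (340109 against 284674) and more sequence with a cut rate below a false discovery rate (FDR) of 0.05 (46.4 Mb against 38.7 Mb).

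All 9 genes had at least 1 shared promoter window, where 64.8% of all protein-coding genes and 87.4% of those with 4 or more TSSs had one. Of the 97 windows, 67 (69.1%) were shared, 6 had a peak in replicate 1 only, 2 in replicate 2 only and 22 in neither, against a background of 52.3% shared over all windows. Neighbouring windows share peaks, so TSS positions within 500 bp of the next were also joined and counted once: 28 of 51 such clusters (54.9%) were shared, against 34.9% of the clusters of all genes. The outermost TSS, the one farthest 5′, had a shared peak in 6 of the 9 genes, the exceptions being Shank1, Shank2 and Dlg4. In Dlg2 the highest peak there lay over a TSS of the neighbouring gene Tmem126b, and in Shank1 a shared peak missed the window by 28 bp. The strongest shared promoter of a gene had a median height of 1.98 over the 9 genes, below the median of 2.94 over all genes with a shared promoter, and 7 of the 9 lay below that median.

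**Figure D1:**
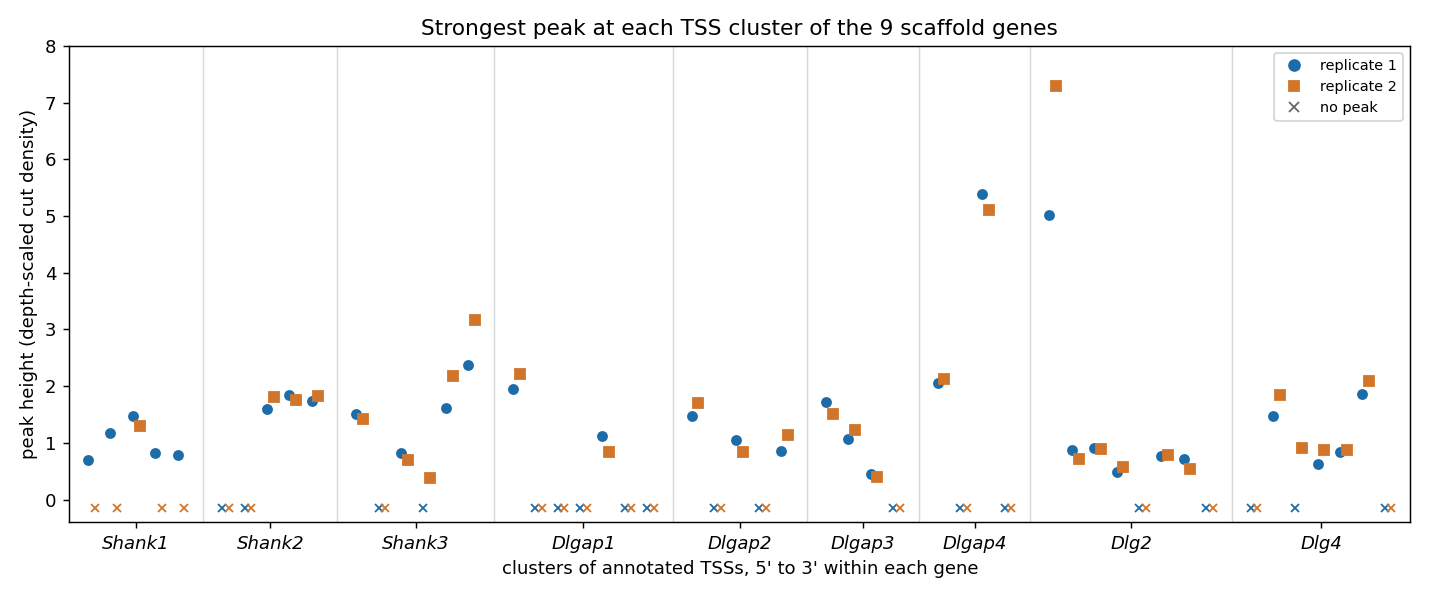
Height of the strongest peak (vertical axis, depth-scaled cut density) at each TSS cluster of the 9 genes, ordered from 5′ to 3′ within a gene, with circles for replicate 1, squares for replicate 2 and crosses where a library had no peak. Dlgap4 (5.38 and 5.10) and Dlg2 (5.02 and 7.29) each had a cluster above 5, and the other clusters lay at 3.16 or below.

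Shank1 (chr7:44310253-44360572) had few promoter windows with a peak in both libraries. Only 1 of its 6 windows was shared, at the internal TSS of Shank1-205, 25.8 kb into the gene, where the peak (chr7:44335381-44335660) had a height of 1.48 in replicate 1 and 1.30 in replicate 2. This peak lay at the edge of the window, with its centre 496 bp from the TSS. The other 5 windows had a peak in replicate 1 only, with heights from 0.702 at the outermost TSS to 1.18 at Shank1-201 and Shank1-202. A broad shared peak of 1465 bp (chr7:44310781-44312245, 2.19 and 2.26) began 528 bp downstream of the outermost TSS and so missed its window by 28 bp. Its 3′ end reached into the windows of Shank1-202 and Shank1-201, but there in replicate 1 only. The centre of this peak lay 1175 bp from the nearest Shank1 TSS, so it is counted below as a distal site. With windows of 1 kb in place of 500 bp, 5 of the 6 Shank1 windows were shared, and with windows of 200 bp none was.

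The strongest accessible sites of Shank1 lay away from its TSSs. A peak in annotated exon sequence at the 3′ end (chr7:44360061-44360340), 49.9 kb from the start, had heights of 5.30 and 5.73, the highest of any distal site in the 9 loci. A peak centred 5233 bp upstream of the outermost Shank1 TSS (chr7:44304821-44305220), beyond the start of the divergently transcribed neighbour Clec11a and within that gene, reached 5.13 and 5.41. Clec11a itself had no shared promoter peak. A second upstream peak (chr7:44305361-44305700) had heights of 1.87 and 2.63, so its values did not overlap those of the first. In all, 6 distal sites were shared in the locus, where distal means a centre more than 1 kb from every TSS of any gene.

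Shank2 (chr7:144001928-144424494) had no peak at its outermost TSS and was accessible at internal ones. Neither the outermost TSS nor that of Shank2-206, 29.3 kb downstream, had a peak in either library or any sequence below FDR 0.05. The window of Shank2-202, 174 kb into the gene, had peaks of 1.603 and 1.80, and the 2 windows of Shank2-205 and Shank2-201, about 283 kb into the gene, shared a peak of 1.84 and 1.75. A further internal TSS near the 3′ end, that of Shank2-204 at 416 kb, had 1.74 and 1.82. The ranges of these 3 promoters overlapped, so none stood apart from the others.

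The gene also held 34 shared distal sites, 33 of them intronic, or 7.68 per 100 kb of locus. The strongest was the CTCF-lettered site 73.0 kb into the gene (chr7:144074801-144074980, 2.08 and 2.40), and the next the other such site at 215 kb (chr7:144217301-144217480, 1.75 and 2.24). The match CCAGCAGGTGGC in the former and CCACTAGATGGC in the latter each lay in a footprint of both libraries. Of the 33 distal sites in the gene body, 17 lay in the middle when the body was cut into 3 equal stretches, and 8 in each of the others.

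Shank3 (chr15:89499623-89560261) was accessible at its start and at internal promoters. The 3 TSSs of its outermost cluster shared peaks of 1.52 and 1.42. Immediately upstream, a peak of 660 bp (chr15:89498461-89499120) was higher in both libraries, at 2.77 and 2.83; it lay within 1 kb of the outermost TSS but outside its window. Among the internal promoters, Shank3-207, 33.3 kb into the gene, had the highest peak at 2.37 and 3.16 (mean 2.77 ± 0.556, SD, n = 2), and Shank3-204, 31.2 kb into the gene, had 1.62 and 2.18. Shank3-208 and Shank3-209, which start 84 bp from the oppositely transcribed noncoding gene Gm15609, shared a weaker peak of 0.823 and 0.692. The window of Shank3-206 had a peak in replicate 2 only, of 0.384, and that of Shank3-202 had none. Thus the internal Shank3-207 promoter exceeded the peak in the windows of the outermost cluster in both libraries, and their values did not overlap. It did not stand above the peak immediately upstream of them, whose 2.77 and 2.83 lay between its own values of 2.37 and 3.16. The order of start and internal promoter therefore depends on the window edge.

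In the printed Shank3-207 sequence, the RFX letters CATGGCAAC lie in a footprint of both libraries, within the run of capitals AGGCCGGGTTGTCATGGCAACCGTGA. RFX proteins are winged-helix factors known for genes of cilia and of neurons. The letters were present in 0.493% of the 250-base stretches upstream of all 93196 TSSs and in 0.91% of all shared peaks near a TSS. Away from its TSSs Shank3 had only 4 shared sites, all weak: the strongest, in an exon 48.6 kb into the gene (chr15:89547830-89548567), had heights of 0.988 and 0.884.

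Dlgap1 (chr17:69969073-70821413) had 2 shared promoters far apart. Its outermost cluster of 6 TSSs held a peak of 760 bp (chr17:69968981-69969740) with heights of 1.94 and 2.21 and 15 and 16 footprints in replicates 1 and 2, of which 11 and 10 overlapped one of the other library. A second cluster 553 kb into the gene had a weaker peak of 1.12 and 0.845, and none of the footprints in its windows overlapped one of the other library. The lowest FDR of the cut rate there was 2.02e-105 in replicate 1 and 4.53e-06 in replicate 2. The other 5 windows of Dlgap1 had no peak in either library.

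Distal sites of Dlgap1 clustered in the later part of the gene. Of 27 in the gene body, 1 lay in the initial of 3 equal stretches, 14 in the middle and 12 in the last, and the longest stretch without one was 267 kb. The strongest was the CTCF-lettered site at 715 kb (chr17:70683901-70684100, 2.85 and 2.94), followed by the E-box site at 520.0 kb (chr17:70488961-70489220, 2.62 and 2.997), whose CAGATGG lies in a footprint of both libraries. The letters CAGATGG are bound by NEUROD-type factors, which are known for excitatory neurons of the cortex. Next came the second printed CTCF-lettered site at 461 kb (2.33 and 2.44) and a site at 665 kb without a motif match (chr17:70633561-70633760, 2.08 and 2.57). A stronger peak inside the gene, chr17:70755041-70755220 (3.18 and 4.26), lay at the TSS of the antisense noncoding gene 5031415H12Rik and was not counted as distal.

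Dlgap2 (chr8:14095865-14847680) had a broad peak at its start, 1740 bp long (chr8:14095681-14097420), with heights of 1.47 and 1.70. It had 24 footprints in replicate 1 and 10 in replicate 2, of which 4 in each overlapped a footprint of the other. Internal promoters at 286 kb (1.06 and 0.840) and 682 kb (0.848 and 1.14) were weaker than the start in both libraries. The locus held 40 shared distal sites, the most of the 9, but with the lowest median height, 0.468. The 2 strongest were intronic, at 17.5 kb (chr8:14113161-14113640, 1.86 and 1.70) and 352 kb (chr8:14447281-14447620, 1.56 and 1.74). A further 87 peaks appeared in replicate 1 only and 40 in replicate 2 only, so most of the 172 merged peaks of this locus were found in a single library.

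Dlgap3 (chr4:127169204-127237022) likewise had a broad peak over its outermost TSS, 1980 bp long (chr4:127168241-127170220), with heights of 1.72 and 1.51. Its second promoter, 3.68 kb downstream, had 1.07 and 1.22, and that at 25.4 kb had 0.455 and 0.403, so the 3 shared promoters fell in height along the gene without overlapping. The gene had 12 shared distal sites or 13.7 per 100 kb, the highest density of the 9. The 2 strongest lay near its 3′ end, at 63.0 kb (chr4:127232141-127232340, 2.17 and 2.48) and 66.7 kb (chr4:127235821-127236020, 1.85 and 2.18).

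Among peaks nearer to a TSS of a member than to one of any other protein-coding gene, the strongest promoter was that of Dlgap4 (chr2:156613705-156764363). It was internal: 8 closely spaced TSSs about 107 kb into the gene and 1 at 108 kb shared a peak (chr2:156720781-156721080) with heights of 5.38 and 5.10 (mean 5.24 ± 0.196, SD, n = 2), higher than the strongest promoter of 86.0% of genes with one. The oppositely transcribed noncoding gene 4930405A21Rik starts 122 bp from the nearest of these TSSs, and the centre of the peak lay nearer to its start than to any Dlgap4 TSS. The outermost TSS had 2.05 and 2.12, so the internal promoter exceeded it 2.51-fold in mean height, and the values did not overlap. The window of Dlgap4-202 and Dlgap4-206 at 86.9 kb and that of Dlgap4-207 at 146 kb had no peak. Among 21 shared distal sites (12.3 per 100 kb), the 2 strongest were intronic, at 52.8 kb (chr2:156666381-156666640, 2.52 and 3.07) and 91.9 kb (chr2:156705541-156705740, 2.25 and 3.32).

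Dlg2 (chr7:90476672-92449247), the longest of the genes at 1973 kb, had the highest peak in any member's window, 5.02 and 7.29 (mean 6.15 ± 1.603, SD, n = 2). This peak (chr7:90475961-90476280) was centred 552 bp upstream of Dlg2 and lay over a TSS of the divergently transcribed Tmem126b, which starts 671 bp from Dlg2. With only peaks nearer to a TSS of the member than to one of any other protein-coding gene, the strongest Dlg2 promoter had heights of 0.916 and 0.893, at Dlg2-210, and Dlg2 moved from the highest to the lowest place of the 9. To which of the divergent genes the peak belongs was not tested. The internal promoters at 614 kb (0.877 and 0.720), 1704 kb (0.770 and 0.788), 1758 kb (0.722 and 0.538) and 1235 kb (0.480 and 0.567) were all below 1. The 4 windows without a peak included those of Dlg2-216 and Dlg2-217 in the outermost cluster.

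The 38 shared distal sites of Dlg2 all lay within the gene body and were weak, with a median height of 0.663. The strongest, at 1617 kb (chr7:92094001-92094180), had 1.24 and 1.76, and the next, at 955 kb (chr7:91431961-91432140), had 1.32 and 1.46; these ranges overlapped. At 1.91 per 100 kb, their density was the lowest of the 9, though above that of 61.0% of the 59 genes with loci over 1 Mb.

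Dlg4 (chr11:70016942-70047522), the shortest gene at 30.6 kb, had the most windows, 20, of which 13 were shared. Its outermost TSS, used by 3 annotated transcripts, had no peak in either library and no sequence below FDR 0.05. The peak at Dlg4-215 and 4 other TSSs, about 1.499 to 1.94 kb downstream, had heights of 1.47 and 1.84. A second group of TSSs about 12.5 to 13.2 kb into the gene, with Dlg4-218 and Dlg4-201, had 1.87 and 2.10 (chr11:70029461-70029820). The window of Dlg4-216 had 0.838 and 0.879, that of a TSS 10.1 kb into the gene had 0.620 and 0.879, that of Dlg4-211 had 0.620 in replicate 1 only and that of Dlg4-206 had 0.903 in replicate 2 only. The highest site of the gene was intronic: the printed sequence chr11:70021541-70021820, 4.74 kb into the gene, reached 3.18 and 3.93, above every Dlg4 promoter in both libraries. Of its 3 SP/KLF matches, 1 overlapped a footprint of both libraries. The only other distal site, at 3.96 kb (chr11:70020721-70021080), had 1.26 and 1.43.

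Other protein-coding genes begin inside 6 of the 9 loci. The Erich1 promoter upstream of Dlgap2 (3.26 and 3.93) was higher than any Dlgap2 promoter. The Acadvl promoter, 1.53 kb from the outermost Dlg4 TSS and in the opposite orientation, had 2.59 and 2.81, also above the Dlg4 promoters. Asgr1 (1.43 and 1.77) had a shared promoter too, whereas Dvl2, Clec11a and Acr, which lies in the Shank3 locus, had none.

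**Figure D2:**
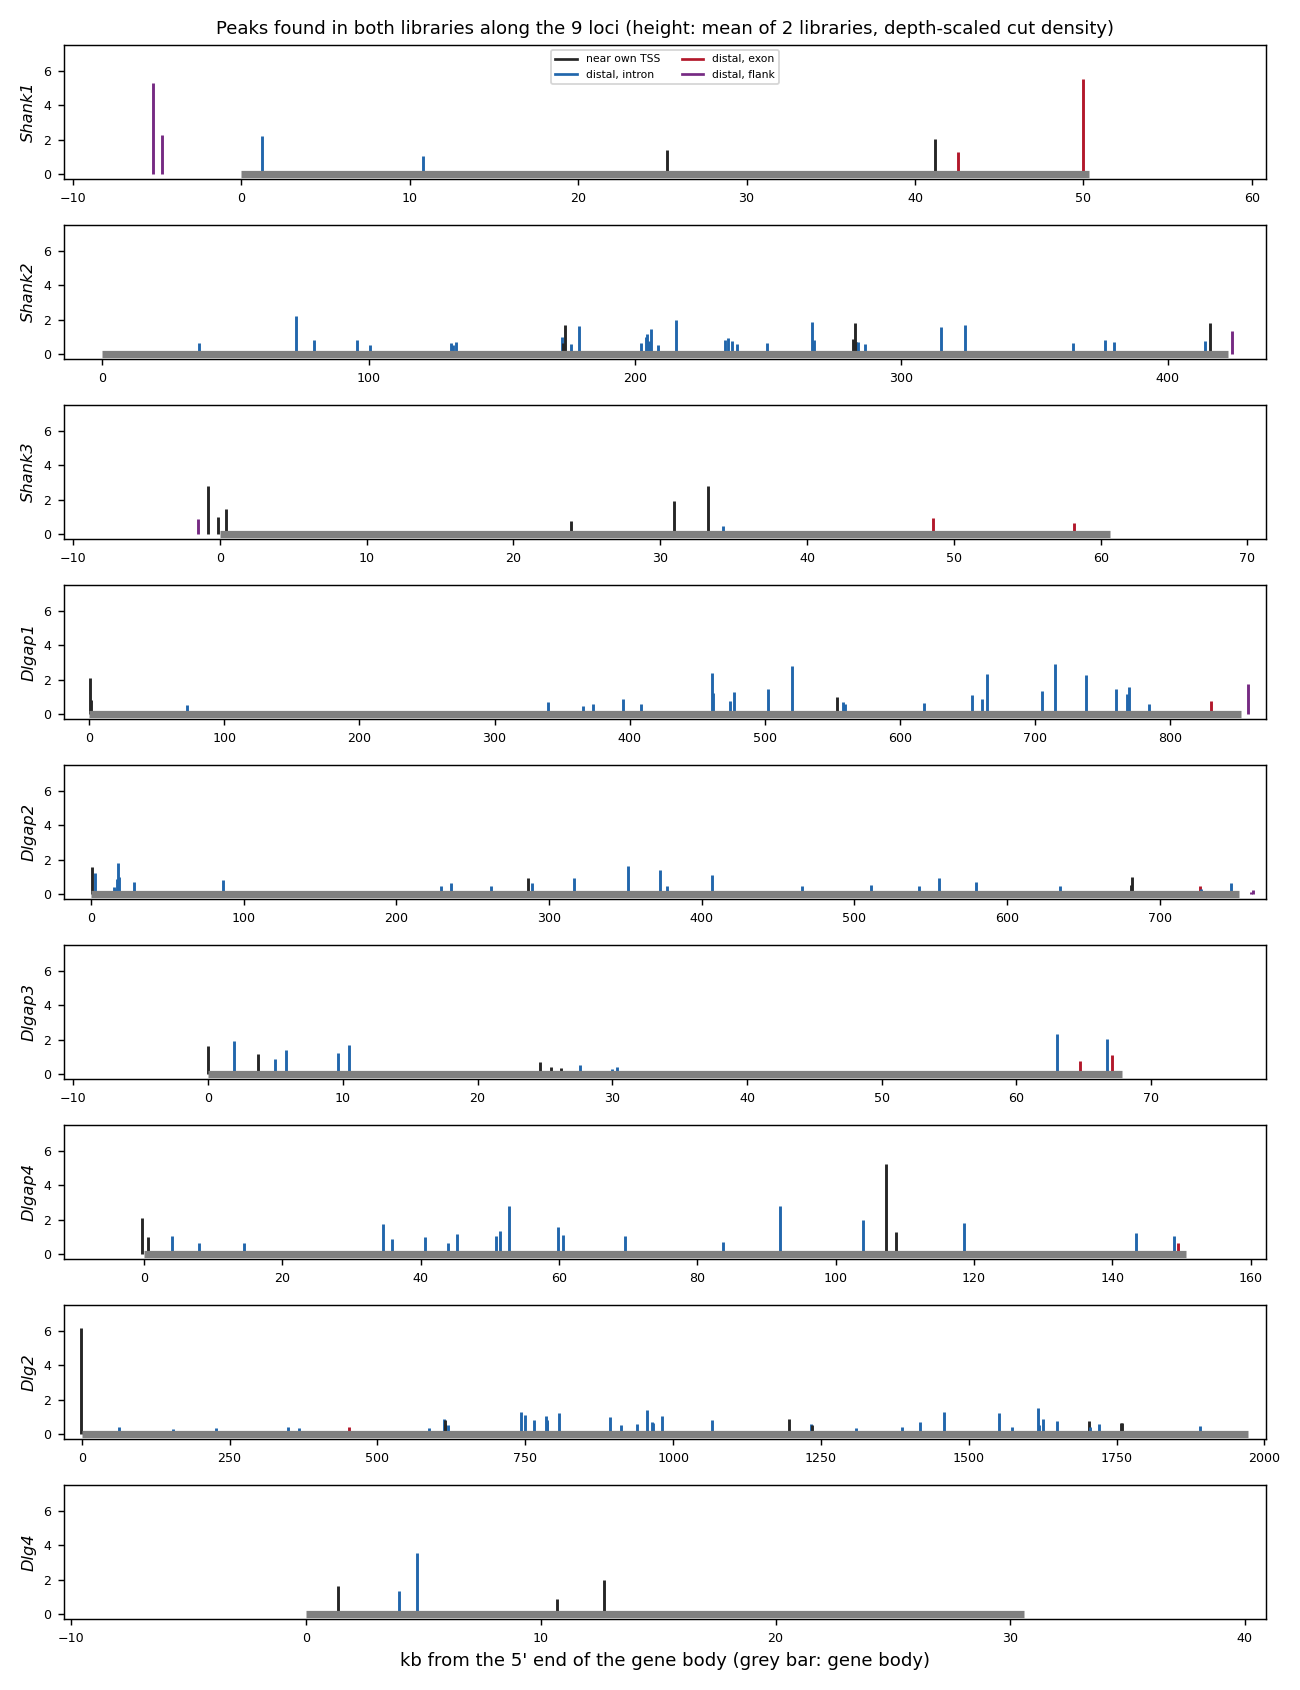
Mean height over the 2 libraries (vertical axis, depth-scaled cut density) of the shared peaks along each locus, other than those at a TSS of another gene,, by distance from the 5′ end of the gene body in kb (horizontal axis, own scale for each gene); the grey bar is the gene body and colours give the kind of site. Most peaks lie in introns below a height of 3, and the 2 tallest distal peaks stand at either end of Shank1 (5.52 and 5.27).

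Over the 9 loci, 577 merged peaks were found: both libraries had 235 of them, replicate 1 alone 218 and replicate 2 alone 124. The median height was 0.849 for the shared peaks, 0.310 for those in replicate 1 only and 0.324 for those in replicate 2 only. Of the shared peaks, 185 were distal (168 in introns, 10 in exons and 7 in flanks) and 50 lay within 1 kb of a TSS. The 2 libraries gave heights within 2-fold of each other for 184 of the 185 distal peaks and for all 50 near a TSS. Member distal peaks had a median height of 0.793 against 0.665 for all 53794 shared distal peaks, whereas member peaks near a TSS had 1.00 against 1.39.

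Distal sites were dense in the scaffold loci. Every one of the 9 loci held at least 1 shared distal site, against 58.7% of all protein-coding loci, with a median of 21 per gene against 1 and of 5.18 per 100 kb against 1.82. Long loci hold more sites, so each was set beside genes of its own length class. All 9 exceeded the median of their class, which was 2.03 per 100 kb for loci of 50 to 200 kb, 2.14 for 200 kb to 1 Mb and 1.44 for over 1 Mb. Dlgap3, Dlgap4 and Shank2 stood highest, above 99.3%, 98.9% and 98.0% of their classes, and Shank1 was above 95.3%. Dlg2 (61.0%), Dlgap1 (69.0%), Dlg4 (73.6%), Shank3 (80.6%) and Dlgap2 (89.8%) were nearer to the middle of theirs.

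**Figure D3:**
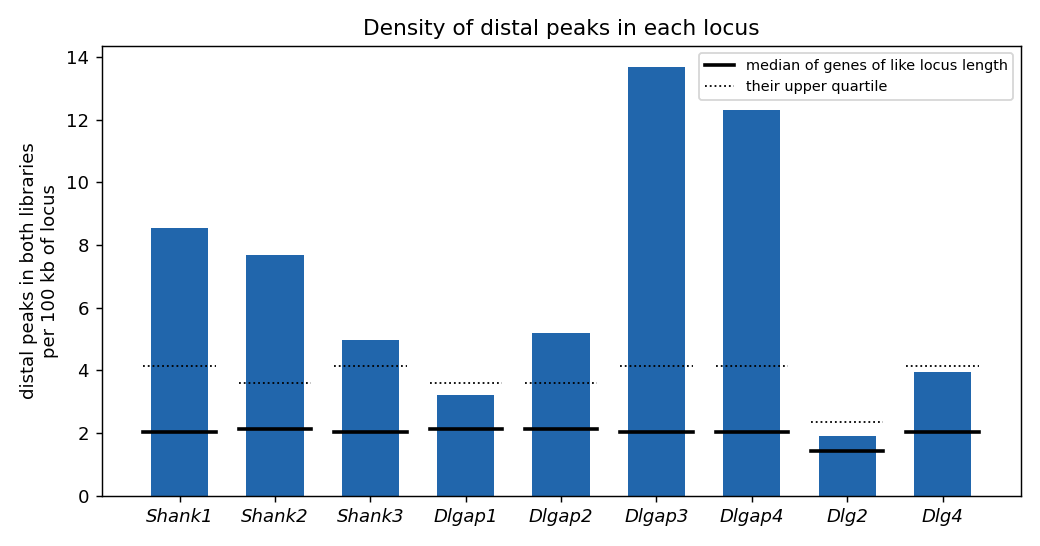
Shared distal peaks per 100 kb of locus for each gene (bars), with the median (solid line) and upper quartile (dotted line) of protein-coding genes in the same length class. All 9 bars exceed the median, from 1.91 for Dlg2 to 13.7 for Dlgap3.

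The libraries differed in how much of some loci was called accessible. In Dlgap3, 19.7% of the locus had a cut rate below FDR 0.05 in replicate 1 and 7.90% in replicate 2, a ratio of 2.49. Shank1 had 17.9% and 7.33% (ratio 2.45), Dlgap1 3.17% and 1.68% (1.89) and Dlgap2 6.63% and 3.78% (1.75). The median ratio over 17877 genes with coverage in both libraries was 1.11, and 95.9% of genes had a lower ratio than Dlgap3 and 90.6% a lower one than Dlgap2. Dlgap4 (6.88% and 6.96%), Dlg2 (1.10% and 1.04%), Shank2 (4.65% and 3.87%) and Shank3 (10.0% and 8.39%) had ratios from 0.989 to 1.20, and Dlg4 (9.14% and 6.35%) had 1.44. The same 4 genes with high ratios held 176 of the 218 peaks found in replicate 1 only. The cause of the difference between the libraries was not tested.

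**Figure D4:**
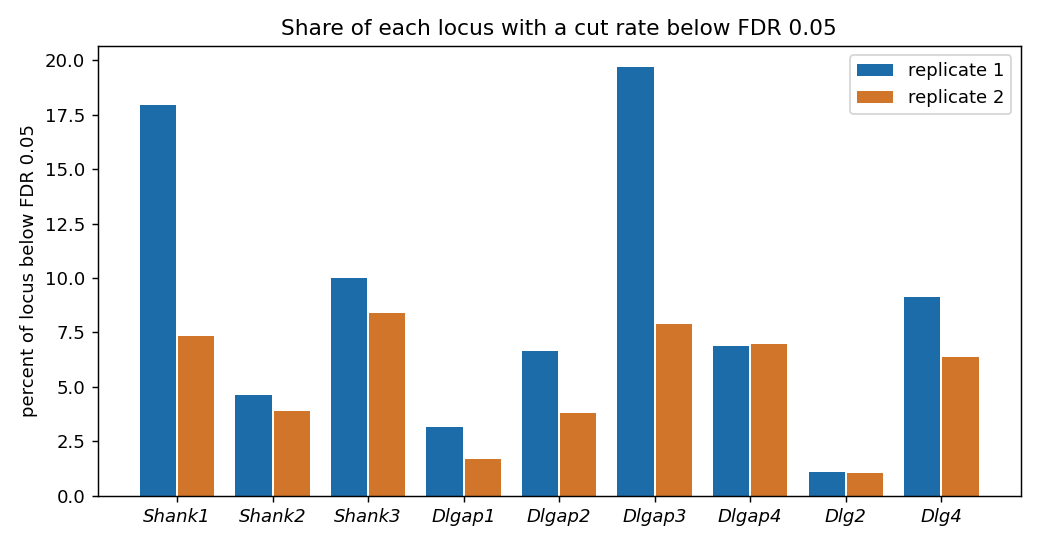
Percent of each locus with a cut rate below FDR 0.05 (vertical axis) in replicate 1 and replicate 2. Shank1 and Dlgap3 show the widest gap, 17.9 against 7.33 and 19.7 against 7.90, and Dlgap4 and Dlg2 the narrowest.

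The shared promoter windows of the 9 genes were poorer in CpG than those of other genes. They held a median of 27 CpG dinucleotides, against 62 in all shared windows, and member windows that were not shared held 21, against 12 in all windows not shared. Among the shared outermost windows, Shank3 held 123, Dlgap1 80, Dlgap2 96, Dlgap3 118 and Dlgap4 128, all above 62, and Dlg2 held 40. Within the set, the range was wide: the Shank3-201 window held 134 CpGs and the outermost Dlgap4 window 128, while the Shank2-204 window held 18 and the Dlgap3-203 window 9. All 4 of these windows were shared.

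Footprints in the 235 shared peaks numbered 818 in replicate 1 and 723 in replicate 2, of which 42.5% and 47.3% overlapped a footprint of the other library, below the 48.5% and 53.5% over all shared peaks. Dlgap1 had the highest share in replicate 1 (58.1%) and Dlgap2 the lowest in both libraries (27.2% and 35.3%). A footprint found in both libraries was present in 123 of the 185 distal peaks (66.5%), against 65.0% of all distal peaks, and in 40 of the 50 near a TSS (80.0%), against 74.4%.

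Consensus letters of 10 motifs were searched on both strands in 300 bp centred on each shared peak: CTCF and MEF2 by their consensus, AP-1 as TGANTCA, CRE as TGACGTCA, EGR as GCGNGGGCG, NRF1 as GCGCATGCG, SP/KLF as GGGCGGG, ETS as CCGGAAG, NEUROD as CAGATGG and RFX as GTTGCCATG. EGR and SP/KLF matches can overlap, since both hold GGGCG. Among the member distal peaks, AP-1 letters were present in 18.9% (all distal peaks 16.2%), NEUROD in 11.4% (14.1%), CTCF in 5.95% (8.23%), SP/KLF in 5.41% (5.81%), MEF2 and ETS each in 2.7% (3.39% and 2.19%) and RFX in 2.16% (1.21%). In member peaks near a TSS, SP/KLF letters were present in 32% (35.0%), ETS in 10% (10.6%), EGR in 8% (9.97%) and NEUROD in 8% (5.6%), while CTCF, CRE, MEF2 and NRF1 had no match. These shares lay near those of all shared peaks, and no test was made.

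Matches ran from 7 bp, as for AP-1, to 12 bp for CTCF, and a longer match can touch a footprint more easily. Motifs differed in how often a match overlapped a footprint of both libraries by 1 bp or more, in the 9 loci as in all shared peaks. The share was 10 of 11 for CTCF (92.6% in all shared peaks), 7 of 10 for EGR (50.9%), 18 of 39 for SP/KLF (41.3%), 3 of 5 for RFX (42.8%), 6 of 26 for NEUROD (21.3%), 1 of 10 for ETS (23.7%), 3 of 45 for AP-1 (7.03%) and 0 of 5 for MEF2 (5.32%). The 11 CTCF matches lay 4 in Shank2, 4 in Dlgap1, 2 in Dlg2 and 1 in Dlg4, and all were distal; the Dlg4 match had a footprint in replicate 1 only. After the printed sequences had been seen, the CTCF letters were searched again with at most 1 mismatch, which gave 24 distal member peaks (13%), against 23.5% of all distal peaks.

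**Figure D5:**
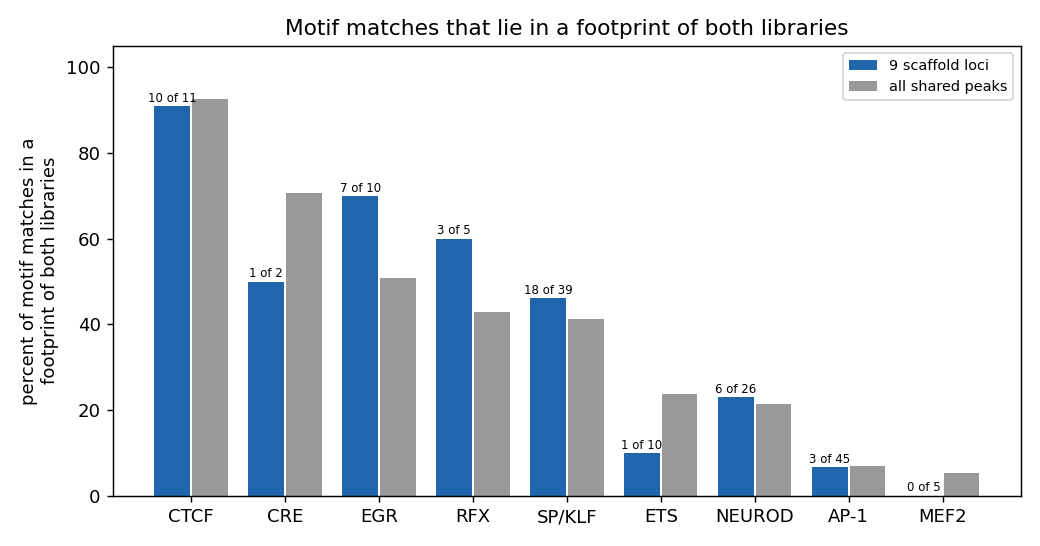
Percent of motif matches that overlap a footprint of both libraries by 1 bp or more (vertical axis), for the 9 scaffold loci with the counts above the bars and for all shared peaks. CTCF matches were nearly always footprinted (10 of 11 and 92.6%) and AP-1 matches rarely (3 of 45 and 7.03%).

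Among 16 other genes of the postsynaptic density, all 16 had a shared promoter, with 79 of 132 windows shared. Their strongest promoters ran from 0.678 in Iqsec2, an X-linked exchange factor for ARF GTPases, to 8.76 in Dynll1, a dynein light chain, with a median of 3.06, whereas the median of the 9 scaffold genes was 1.98. They held 131 shared distal sites with a median of 4 per gene, from 0 in Dynll1 to 53 in Kalrn, which encodes the spine protein kalirin. The related guanylate kinase genes Dlg1 and Dlg3 had strongest promoters of 1.87 and 1.11 and 7 and 2 distal sites, at 3.02 and 2.83 per 100 kb.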

How the data were processed

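The deposited calls refer to mm10, per the labels, and were made by the authors on each library alone. Which aligner and callers were used is not given in the sources used here. Peak height is the deposited signal, a cut density scaled by the authors to read depth. Footprint tables give the deposited FDR as a fraction, 0.01 throughout, and cut-rate tables the deposited q-value, an adjusted p-value, below 0.05. The larger of 2 deposited peak lists per library was used. Mismatches of CAST/EiJ reads to the reference could lower heights, and the parental alleles were not separated here.

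Positions count from 1 on mm10. Sequence came from GRCm38.p6 of RefSeq and genes from GENCODE M21. Peaks were merged across libraries where they shared 1 bp or more. Tables were built with Python 3.11.15, NumPy 2.4.6 and pandas 2.3.3, and the interval and motif functions were tested on simulated data. With 1 group of 2 libraries no test was run: each value is given for both libraries, and an SD over 2 libraries is imprecise. Alternatives covered window, flank, peak list, overlap, FDR, motif window and leaving out a library. All 9 members, and for each its strongest shared promoter and 2 strongest shared distal peaks, were named, with the 10 strongest distal peaks over all; other genes came from lists. The members and lists were chosen with earlier results of these data known.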

Additional observations from a re-analysis of the deposited data

How the results depend on the processing

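Of 40 alternative values, 27 stayed within the tolerance set here and 13 moved past it. The tolerance was 1.5 times for a count, and 1 SD between the 2 libraries for a height or a covered share. Counts can therefore shift a good deal within it: the shared distal peaks fell from 185 to 139 with reciprocal overlap of 50% and to 124 with the upper 50% of peaks, the footprints from 345 to 262.5 on average with reciprocal overlap of 50%, and the shared peaks with any motif from 104 to 73 with 150 bp in place of 300 bp searched. All 9 genes kept a shared promoter with 1 kb windows, with the upper 50% of peaks and with either library alone, and 8 did with 200 bp windows, the smaller peak list, reciprocal overlap of 50% or TSSs of protein_coding transcripts alone, the gene lost being Shank1 each time. The 67 shared windows became 44 of 60 with TSSs of protein_coding transcripts alone and 28 of 51 with TSSs within 500 bp joined, both by construction counting fewer windows, and 69 to 73 with either library alone. The 185 shared distal peaks became 102 with the smaller peak list, and 290 to 384 with either library alone. At least 1 distal site remained in 8 of the 9 loci with the smaller peak list or at over 2.5 kb from a TSS. It remained in all 9 under the other alternatives for distal peaks. The median height of the strongest promoter, 1.98, became 1.79 with peaks nearer to another gene left out, an alternative chosen after seeing the data, and 1.87 to 2.10 with either library alone. Ordered by base pairs of the window below FDR 0.05 in place of height, 4 of the 9 genes stayed within 1 place, and 3 filled the whole window and could not be ordered. Footprints overlapping between libraries, 345 on average, became 723 to 818 footprints with either library alone, where no overlap is asked. The median covered share of a locus, 6.92%, became 3.69% at FDR 0.001 and 6.35% to 6.88% with either library alone. The 104 shared peaks with any motif became 148 to 165 peaks with either library alone. Distal peaks with CTCF letters rose from 11 to 24 with 1 mismatch allowed, also chosen after seeing the data. At FDR 0.001 the coverage ratio between libraries was 3.94 in Dlgap3, 2.30 in Dlgap1, 1.96 in Shank1 and 1.94 in Dlgap2. No paired analysis was possible because there is 1 group and the results come from no test. Depth and the number of libraries limit weak sites, and a site absent from a list was not detected at this depth.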
